A study of Mus musculus with 8 samples.

Results

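Caspases, receptor-interacting kinases, the pseudokinase MLKL and the gasdermins carry out the regulated forms of cell death, and 8 of their genes were followed here. These were the inflammatory caspases *Casp1* and *Casp4*, the initiator caspase *Casp8*, the necroptosis genes *Ripk1*, *Ripk3* and *Mlkl*, and the pore-forming gasdermins *Gsdmd* and *Gsdme*. Their rows were taken by gene symbol from the comparison tables of the study, which list 27051 and 27337 genes, and each of the 8 symbols was found once in both tables. RNA-Seq was performed on 4T1 cells, a mouse triple-negative breast cancer cell line, given a purified single-domain antibody (sdAb) at 0.5 μg/mL after confluence. One group received sdAb#07.81, which is directed against the stress protein NUPR1, for 24 h, another received sdAb#07.81 for 48 h, and the third received the control antibody sdAb-Con for 48 h. All cells were kept at 1% O2, every group had 2 libraries, and the series holds no sdAb-Con group at 24 h. An untreated group, Con, was sequenced as well and was not analysed here. The labels do not say whether the 2 libraries of a group came from separate cultures, so the p-values measure only the spread between these libraries, which may be technical.

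In apoptosis, caspase-8 is activated on death receptors and cuts the effector caspases. Where caspase-8 is blocked, RIPK1 can engage RIPK3, which phosphorylates MLKL, and MLKL then breaks the plasma membrane in necroptosis. In pyroptosis, caspase-1 activated by inflammasomes, or mouse caspase-11, the product of *Casp4*, activated by bacterial lipopolysaccharide, releases the pore-forming part of gasdermin D, while gasdermin E is opened by an effector caspase. The inflammatory caspase genes are known to be induced by interferons and by NF-κB. Transcript levels say nothing of the cleavage or phosphorylation on which these proteins depend.

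*Casp1* and *Casp4* are neighbours. The tables list *Casp1* (ENSMUSG00000025888) on chromosome 9 from 5298508 to 5307290 and *Casp4* (ENSMUSG00000033538) on the same strand from 5308828 to 5336783, with 1537 bases between them and no mouse genome build named. *Casp12*, a further caspase gene, begins 8646 bases after *Casp4* on the same strand, with no listed gene in between. The 250 bases upstream of the RefSeq starts of *Casp1* and *Casp4* are shown because these were the members with the widest differences between groups, and the capitals mark matches to a form of the κB motif, the binding sequence of NF-κB.

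*Casp1*, GRCm38.p6, chr9:5298267-5298516, plus strand: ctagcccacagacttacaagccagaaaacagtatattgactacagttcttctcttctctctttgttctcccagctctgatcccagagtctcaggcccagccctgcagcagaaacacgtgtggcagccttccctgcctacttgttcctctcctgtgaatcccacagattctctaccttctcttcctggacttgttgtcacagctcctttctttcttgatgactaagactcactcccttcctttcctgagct
*Casp4*, GRCm38.p6, chr9:5308599-5308848, plus strand: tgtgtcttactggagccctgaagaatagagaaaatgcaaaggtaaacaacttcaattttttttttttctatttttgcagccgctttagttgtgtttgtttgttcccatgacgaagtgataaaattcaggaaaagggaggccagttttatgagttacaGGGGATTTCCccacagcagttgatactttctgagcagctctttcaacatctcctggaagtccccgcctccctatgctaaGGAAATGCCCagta

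RefSeq gave 9 such windows for 7 of the 8 genes, and none was matched for *Gsdmd*. Both strands were searched for GGG, any 2 bases and TTTCC (κB), for GAAA, any 2 bases and GAAA (the core of the interferon-stimulated response element), and for TTC, any 3 bases and GAA (the gamma-interferon activation site). The *Casp4* window held 2 κB matches, which begin at positions -93 and -14 from the start and overlap no other match, and the window of a second *Casp4* start, 11 bases further on, held the same 2. The *Casp1* window held no match to any of the 3 motifs. One window of *Ripk1* held 2 matches to the gamma-interferon activation site, and no window of the 7 genes held the response element core. Of 32851 mouse windows of this length, 1.41% held the κB motif, 2.98% the response element core and 7.02% the gamma-interferon activation site. A match describes letters and does not show that a factor binds there.

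Levels per library were obtained because the deposited mean counts could be resolved into whole reads for 25650 of the 25676 genes in both tables. They are given as normalised read counts, that is, reads divided by the size factor of the library over all 6 libraries, which ranged from 0.914 to 1.09. The resolved genes held between 14937114 and 17804419 reads per library. The 2 libraries of a group are called library a and library b, which are names only. The epithelial markers *Epcam*, *Krt8*, *Krt18*, *Krt7*, *Krt14* and *Cdh1* summed to between 44751 and 55080 normalised reads in every library. Of the 11 leukocyte markers, *Cd68* reached 1041 (at 48 h) and *Cd14* 172 (at 24 h), and the other 9, which include *Ptprc* and *Csf1r*, did not exceed 10.4 in any library where they were listed. The summed leukocyte markers ranged from 740 to 1123 in sdAb-Con (48 h), from 591 to 752 in sdAb#07.81 (48 h) and from 424 to 456 in sdAb#07.81 (24 h). Its 2 abundant markers went in opposite directions, *Cd68* from between 237 and 270 at 24 h to between 500.5 and 1041 at 48 h and *Cd14* from between 169 and 172 to between 66.1 and 79.8. The summed fibroblast and endothelial markers, mostly *Pdgfra*, were higher at 24 h, between 1015 and 1252, than at 48 h, between 662 and 699. The part of these markers in the differences of the members between 24 h and 48 h was not tested. In bulk RNA, fewer cells of a type and less RNA per cell cannot be told apart.

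The genes differed widely in level. Compared per kilobase of the longest annotated transcript in sdAb-Con (48 h), *Casp8* stood highest with a mean of 724 normalised reads per kilobase, followed by *Mlkl* with 506 and *Gsdmd* with 252. *Casp1* with 155 and *Casp4* with 146 came next, and their libraries overlapped, which no other neighbours in this order did. *Ripk1* with 57.6 and *Gsdme* with 47.3 were lower. *Ripk3* stood apart from all others with 0.732 normalised reads per kilobase. In sdAb#07.81 (24 h) the order was different, with *Mlkl* at 685 above *Casp8* at 561 and no overlap of their libraries. Below *Gsdmd*, which was at 180.0, it was different as well, with *Ripk1* at 115 and *Gsdme* at 82.5 above *Casp1* at 58.7 and *Casp4* at 43.6 normalised reads per kilobase, although the higher *Casp1* library, at 81.1, lay above the lower *Gsdme* library, at 78.8. In sdAb#07.81 (48 h) the order of the means was that of sdAb-Con (48 h), and the libraries of *Casp1* and *Casp4* and those of *Ripk1* and *Gsdme* overlapped.

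**Figure D1:**
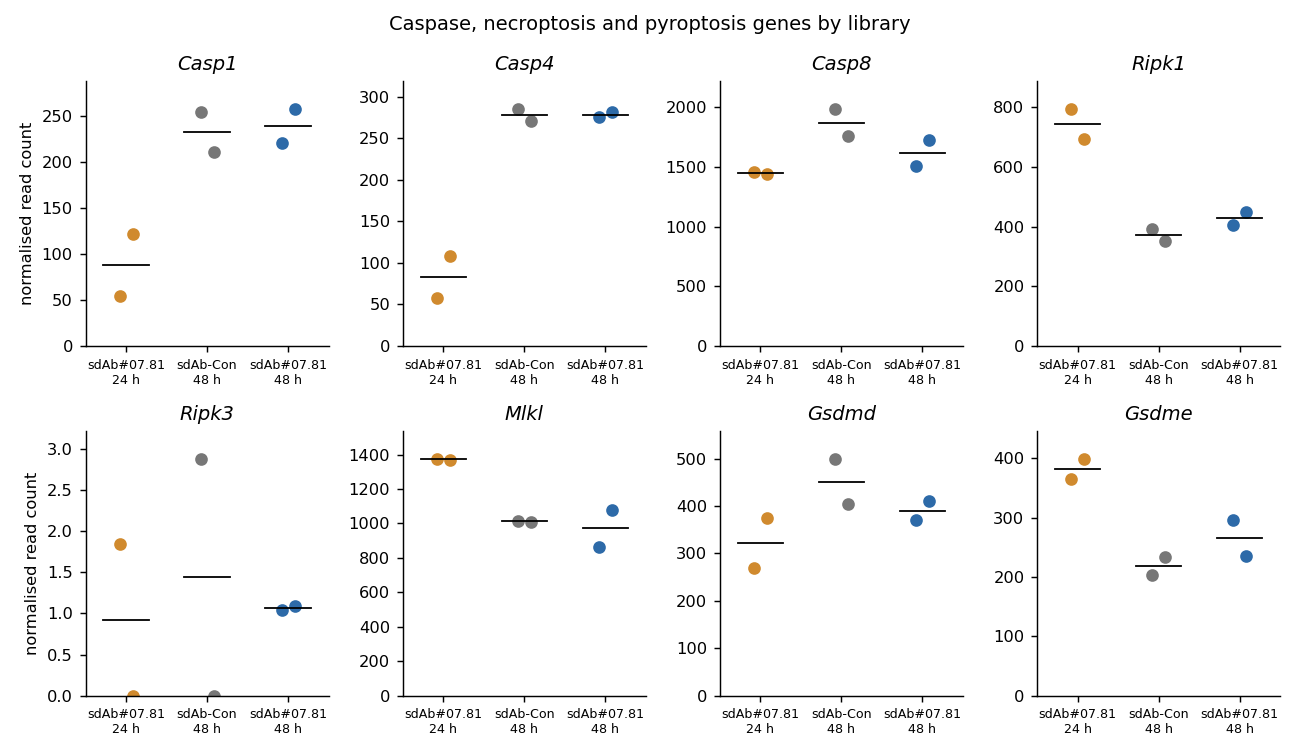
Normalised read count (vertical axis, from 0, different for each gene) of the 8 genes in the libraries of the 3 groups; each point is a library and each line the mean of 2 libraries. *Casp1* and *Casp4* sat between 54.2 and 121 at 24 h and above 210 in all 4 libraries at 48 h, whichever antibody was given, while *Ripk1*, *Mlkl* and *Gsdme* were higher at 24 h and *Ripk3* stayed under 3.

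The first comparison asked how 4T1 cells given sdAb#07.81 for 48 h differed from cells given sdAb-Con for 48 h. None of the tested members passed the test, and their log2 fold changes lay between -0.21 and 0.29, with values on both sides of 0. The fold changes, standard errors and two-sided Wald p-values are those of the deposited tables, with the p-values adjusted by the Benjamini-Hochberg method over the genes with a mean normalised count of at least 10 and called at an adjusted p under 0.05. Of the 8 genes 7 were tested, *Ripk3* being under the minimum, and 0 of 7 were called, against 16.6% of all 13876 tested genes (9.9% higher and 6.75% lower in sdAb#07.81). None of the 7 had an unadjusted p under 0.05 either, by the deposited test or by limma on the resolved reads. The median size of the log2 fold change was 0.20 for the 7 genes and 0.22 for all tested genes.

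*Casp1*, whose product matures IL-1β and IL-18, had normalised read counts of 254 and 211 in sdAb-Con (48 h) and 221 and 257 in sdAb#07.81 (48 h). *Casp4*, which senses cytosolic lipopolysaccharide, had 284 and 271 against 275 and 281. In both genes the libraries of the antibodies overlapped. The log2 fold change was 0.05 ± 0.191 (SE) for *Casp1*, with a 95% interval from -0.33 to 0.42, and 0.01 ± 0.164 (SE) for *Casp4*, with an interval from -0.32 to 0.33 (adjusted p = 0.914 and 0.985).

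*Casp8* had the smallest p of the 8 genes. Its normalised read counts were 1982 and 1762 in sdAb-Con (48 h) and 1509 and 1725 in sdAb#07.81 (48 h), so both sdAb#07.81 libraries lay below both controls, the nearest by a small margin. The log2 fold change was -0.21 ± 0.110 (SE), with an unadjusted p of 0.0598 and an adjusted p = 0.199. The libraries of the antibodies were also apart for *Ripk1* and *Gsdme*, 3 of 7 genes in all, where 59% of all genes showed such a separation.

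*Ripk1* (ENSMUSG00000021408, chromosome 13 from 34186346 to 34221130), the kinase at the branch between survival, apoptosis and necroptosis, had 393 and 353 normalised reads with sdAb-Con and 407 and 449 with sdAb#07.81 at 48 h. Its log2 fold change was 0.20 ± 0.150 (SE; adjusted p = 0.400). *Gsdme* (ENSMUSG00000029821, chromosome 6 from 50165868 to 50240842) had 204 and 234 with sdAb-Con and 296 and 236 with sdAb#07.81, a log2 fold change of 0.29 ± 0.194 (SE; adjusted p = 0.337). For both genes the sdAb#07.81 libraries were the higher ones, by a difference that did not pass the test.

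*Mlkl* (ENSMUSG00000012519, chromosome 8 from 112038429 to 112064809), the executioner of necroptosis, gave 1015 and 1010 normalised reads with sdAb-Con and 861 and 1080 with sdAb#07.81 (48 h). The sdAb#07.81 libraries lay on either side of the controls, and the log2 fold change was -0.06 ± 0.130 (SE; adjusted p = 0.834). *Gsdmd* (ENSMUSG00000022575, chromosome 15 from 75734176 to 75739257), the pore former of pyroptosis, gave 499 and 403 with sdAb-Con and 371 and 410 with sdAb#07.81. Its libraries overlapped as well, with a log2 fold change of -0.20 ± 0.160 (SE; adjusted p = 0.437).

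*Ripk3* (ENSMUSG00000022221, chromosome 14 from 56022452 to 56026322), the kinase that activates MLKL, was hardly detected. The libraries held 3 and 0 reads in sdAb-Con (48 h), 1 and 1 in sdAb#07.81 (48 h) and 2 and 0 in sdAb#07.81 (24 h). With so few reads no difference between groups could be detected at this depth, and no fold change is given. *Mlkl*, the substrate of this kinase, had between 861 and 1373 normalised reads in the same libraries.

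The second comparison asked how the cells changed between 24 h and 48 h of sdAb#07.81. Without an sdAb-Con group at 24 h, longer exposure to sdAb#07.81 and longer time in culture cannot be told apart in it. *Casp1* and *Casp4* were higher at 48 h by 2.73-fold and 3.36-fold, while *Ripk1*, *Mlkl* and *Gsdme* were lower, at 0.575, 0.707 and 0.698 of their level at 24 h. *Casp8* and *Gsdmd* were not called. In all, 5 of 7 tested genes were called, 2 higher and 3 lower, against 41.9% of 13968 tested genes (19.8% higher and 22.1% lower). The libraries of the time points did not overlap for 6 of the 7 genes, *Gsdmd* being the exception, against 71.3% of all genes. The median size of the log2 fold change was 0.52 for the 7 genes and 0.39 for all tested genes.

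The inflammatory caspases had the largest log2 fold changes of the 7 tested members in this comparison. *Casp4* had 57.9 and 108 normalised reads at 24 h and 275 and 281 at 48 h of sdAb#07.81, so that the 48 h libraries lay close together and far above both 24 h libraries. Its log2 fold change was 1.75 ± 0.266 (SE; adjusted p = 6.8e-10). *Casp1* had 54.2 and 121 at 24 h and 221 and 257 at 48 h, with a wide gap between the 24 h libraries that *Casp4* shared, and its log2 fold change was 1.45 ± 0.556 (SE; adjusted p = 0.0250). In limma without library b of the 24 h group, the *Casp1* log2 fold change was 2.13, and without library a it was 0.97. The *Casp1* call was lost when a trend of the fold changes with mean count, GC content and length of the transcripts was removed (log2 fold change 1.27, adjusted p = 0.0537).

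*Ripk1* and *Mlkl* moved the other way. *Ripk1* had 793 and 694 normalised reads at 24 h and 407 and 449 at 48 h of sdAb#07.81, both below the lower 24 h library, and its log2 fold change was -0.80 ± 0.149 (SE; adjusted p = 7.7e-07). *Mlkl* had 1373 and 1370 at 24 h, nearly equal, and 861 and 1080 at 48 h, with a log2 fold change of -0.50 ± 0.129 (SE; adjusted p = 0.00049). The *Mlkl* difference was -0.34 and did not pass (adjusted p = 0.0815, limma) without library a of sdAb#07.81 (48 h).

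Of the gasdermins, *Gsdme* was lower at 48 h and *Gsdmd* was not called. *Gsdme* had 365 and 399 normalised reads at 24 h and 296 and 236 at 48 h, so all libraries at 48 h were lower, and its log2 fold change was -0.52 ± 0.185 (SE; adjusted p = 0.0149). This call was lost in limma without library b of sdAb#07.81 (48 h), at -0.36 (adjusted p = 0.179), and without library b of sdAb#07.81 (24 h), at -0.46 (adjusted p = 0.0612). *Gsdmd* had 269 and 376 at 24 h against 371 and 410 at 48 h, where the higher 24 h library overlapped the 48 h libraries, and the log2 fold change was 0.28 ± 0.192 (SE; adjusted p = 0.249). Without library b of the 24 h group the *Gsdmd* difference was 0.54 and passed (adjusted p = 0.0169, limma). The difference between the changes of *Gsdme* and *Gsdmd* was itself not tested.

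*Casp8* (ENSMUSG00000026029, chromosome 1 from 58834533 to 58886662) had 1460 and 1442 normalised reads at 24 h and 1509 and 1725 at 48 h of sdAb#07.81. The 48 h libraries were the higher ones, but the log2 fold change of 0.16 ± 0.111 (SE) did not pass (adjusted p = 0.266), and its 95% interval ran from -0.06 to 0.37.

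**Figure D2:**
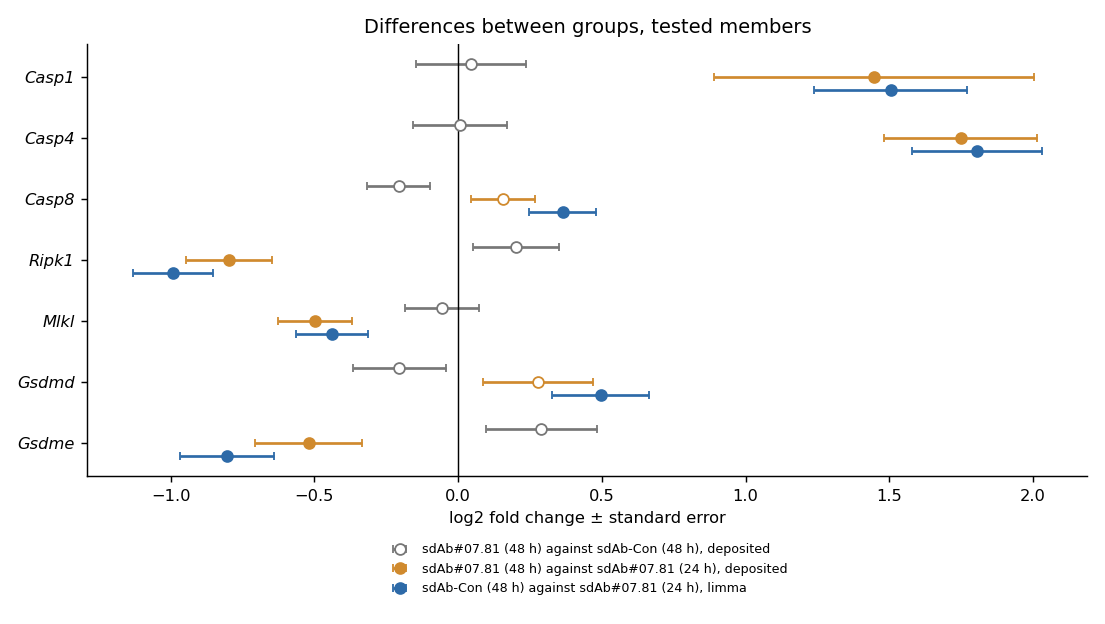
Log2 fold change with its standard error (horizontal axis) of the 7 tested genes in the 3 comparisons of the groups; filled points had an adjusted p under 0.05 and open points did not. No point of sdAb#07.81 (48 h) against sdAb-Con (48 h) is filled, whereas 5 are against sdAb#07.81 (24 h) and all 7 between the control antibody at 48 h and sdAb#07.81 at 24 h.

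The tables share the sdAb#07.81 (48 h) libraries, so that the remaining pair, the control antibody at 48 h and sdAb#07.81 at 24 h, can be set against each other. These groups differ in both antibody and time, which cannot be told apart in this pair. In the limma fit on the resolved reads of all 6 libraries, 7 of 7 tested members differed, and their libraries did not overlap in any of the 7, against 74.8% of 13935 genes. The 4 genes *Casp1*, *Casp4*, *Casp8* and *Gsdmd* were higher in sdAb-Con (48 h), where 25.2% of 13935 genes were higher, and the 3 genes *Ripk1*, *Mlkl* and *Gsdme* were lower, where 25.7% were lower.

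In this pair *Casp4* gave a log2 fold change of 1.81 (adjusted p = 3.1e-06, limma) and *Casp1* 1.51 (adjusted p = 0.000128). *Ripk1* gave -0.99 (adjusted p = 1.1e-05), *Gsdme* -0.80 (adjusted p = 0.000509) and *Mlkl* -0.44 (adjusted p = 0.00719). *Gsdmd* gave 0.50 (adjusted p = 0.0202) and *Casp8* 0.36 (adjusted p = 0.0141), where the deposited values between the time points of sdAb#07.81 were 0.28 and 0.16. The 24 h libraries are common to both of these comparisons, so they are not independent of each other. The difference of the deposited log2 fold changes, which has no test, gave 1.74 for *Casp4*, 1.40 for *Casp1*, 0.48 for *Gsdmd*, 0.36 for *Casp8*, -0.44 for *Mlkl*, -0.81 for *Gsdme* and -1.0005 for *Ripk1*.

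Around the members, 88 genes of the same pathways were described in 7 lists. Of these, 67 were tested in each comparison. Against sdAb-Con (48 h), 10 were higher and 4 lower in sdAb#07.81, which is 20.9% of the tested genes beside 16.6% of all genes, and against sdAb#07.81 (24 h), 18 were higher and 19 lower, which is 55.2% beside 41.9%. The 14 calls against sdAb-Con (48 h) rest on the setting, with 4 calls once the trend was removed and 1 to 4 in limma without any 1 of the 4 libraries, and those against 24 h numbered 22 or 23 without library a of sdAb#07.81 (24 h) or either library of sdAb#07.81 (48 h). The median log2 fold changes, 0.01 and 0.07, lay near those of all tested genes, -0.02 and -0.01. For comparison, 10 of 10 interferon-stimulated genes were higher in sdAb#07.81 (48 h) in both comparisons, with medians of 1.51 and 3.99. These genes, like the lists, were chosen with earlier results of these data known, so their count is a description only.

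**Figure D3:**
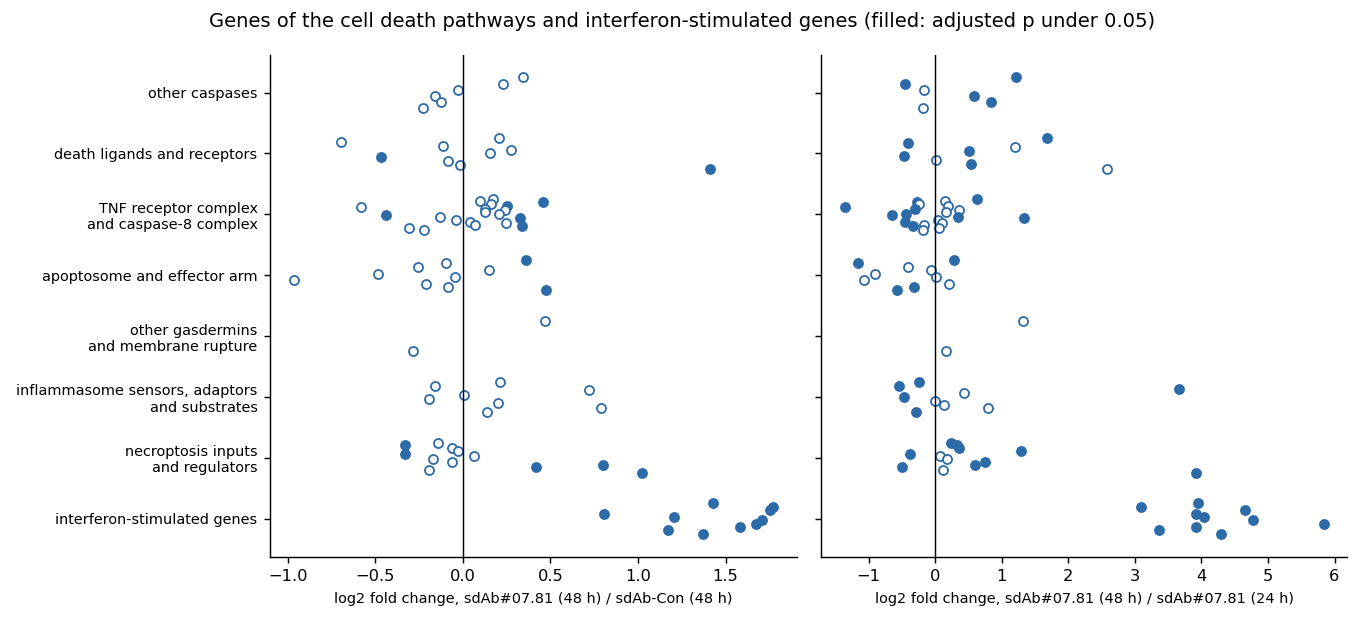
Log2 fold change (horizontal axes, with different ranges) of each tested gene of the 7 pathway lists and of the interferon-stimulated genes against sdAb-Con (48 h), left, and against sdAb#07.81 (24 h), right; each point is a gene, filled where the adjusted p was under 0.05. The interferon-stimulated genes are all filled to the right of 0 in both panels, and the pathway lists spread to both sides.

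Of the other caspases, 0 of 6 tested genes were called between the antibodies at 48 h, beside 16.6% of all tested genes. Over time 3 were higher at 48 h of sdAb#07.81 and 1 was lower, which is 66.7% beside 41.9%. *Casp12*, the neighbour of *Casp4*, had 258 and 450 normalised reads at 24 h and 734 and 902 at 48 h, with a log2 fold change of 1.21 (adjusted p = 0.0101), so that the 3 adjacent caspase genes were all higher at 48 h. These genes are related in sequence, and how reads matching more than 1 of them were counted is not given in the sources used here. The effector caspase *Casp6* at 0.58 was higher as well, *Casp2* at -0.45 was lower, and *Casp9* was not called. *Casp14* was not listed.

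Among the death ligands and receptors, *Tnfsf10*, which encodes TRAIL, was the gene that differed most between the antibodies. It had 36.4 and 38.6 normalised reads in sdAb-Con (48 h) and 75.1 and 124 in sdAb#07.81 (48 h), apart from the controls, and its log2 fold change was 1.41 (adjusted p = 0.00149). *Tnfrsf12a*, the TWEAK receptor, was at -0.47 against sdAb-Con (48 h) and at -0.46 against 24 h, called lower in each. The other 7 tested genes were not called between the antibodies, so that 22.2% of this list was called beside 16.6% of all tested genes. Against 24 h, 3 of 8 tested genes were higher and 2 lower, which is 62.5% beside 41.9%. *Fas*, the death receptor that recruits FADD and caspase-8, rose from 227 and 344 normalised reads to 905 and 928 over time, at a log2 fold change of 1.68, and had 871 and 726 in sdAb-Con (48 h). *Tnfrsf1b* at 0.55 and *Tnfrsf10b*, the mouse TRAIL receptor, at 0.50 were also higher.

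In the complexes that form on TNF receptor 1 and around caspase-8, 4 of 20 genes were higher and 1 was lower with sdAb#07.81 at 48 h than with sdAb-Con. That is 25% of the list beside 16.6% of all tested genes. *Cflar*, which encodes the caspase-8 inhibitor c-FLIP, had 1153 and 1232 normalised reads with sdAb-Con and 1745 and 1516 with sdAb#07.81, a log2 fold change of 0.46 (adjusted p = 0.00068). *Tnfaip3* (A20) at 0.34 and *Rnf31* (HOIP) at 0.33, both regulators of ubiquitin at this complex, were higher too, and the deubiquitinase gene *Otulin* at -0.44 was lower. Against 24 h, 3 genes were higher and 7 lower, which is 50% beside 41.9% of all tested genes. *Rnf31* at 1.33 and *Birc2* (cIAP1) at 0.62 were among the higher and *Otulin* at -0.65 among the lower. *Fadd*, the adaptor between death receptors and caspase-8, had 208 and 280 normalised reads at 24 h and 88.6 and 102 at 48 h, with a log2 fold change of -1.36. *Cflar* and *Tnfaip3* were called in opposite directions in the comparisons, both being highest at 24 h. There *Cflar* had 1915 and 2004 normalised reads and *Tnfaip3* 4889 and 4344, and against 24 h they were at -0.27 and -0.33.

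Of the apoptosome and its effector arm, 2 of 10 genes were called, both higher with sdAb#07.81 at 48 h than with sdAb-Con (20%, beside 16.6% of all tested genes). These were *Xiap*, an inhibitor of caspases, at 0.48, with 1354 and 1307 normalised reads against 1898 and 1791, and *Apaf1*, the scaffold that activates caspase-9, at 0.36. Against 24 h *Apaf1* was higher at 0.28, and the inhibitors *Birc5* (survivin) at -1.16 and *Xiap* at -0.57 and the caspase substrate *Parp1* at -0.31 were lower. These 4 genes are 40% of the list, close to the 41.9% of all tested genes.

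The partners of necroptosis were described in a list of 12 genes. Between the antibodies at 48 h 3 were higher and 2 lower, which is 41.7% beside 16.6% of all tested genes. *Zbp1*, a sensor of Z-form nucleic acid that binds RIPK3, had 237 and 221 normalised reads in sdAb-Con (48 h) and 354 and 572 in sdAb#07.81 (48 h), at a log2 fold change of 1.02. *Tlr3*, the endosomal receptor of double-stranded RNA, had 571 and 521 against 951 and 943, at 0.80, and *Tlr4* was higher at 0.42 while *Chmp2a* was lower at -0.33. Against 24 h, 7 were higher and 2 lower, which is 75% beside 41.9%. *Zbp1* had only 24.8 and 36.3 at 24 h and had a log2 fold change of 3.92, and *Hsp90aa1* at 1.28, *Ticam1* (TRIF) at 0.75 and *Tlr3* at 0.60 were higher too. *Tlr4*, at -0.50 against 24 h, and *Chmp2a*, at 0.33, were called opposite to their directions against sdAb-Con (48 h).

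**Figure D4:**
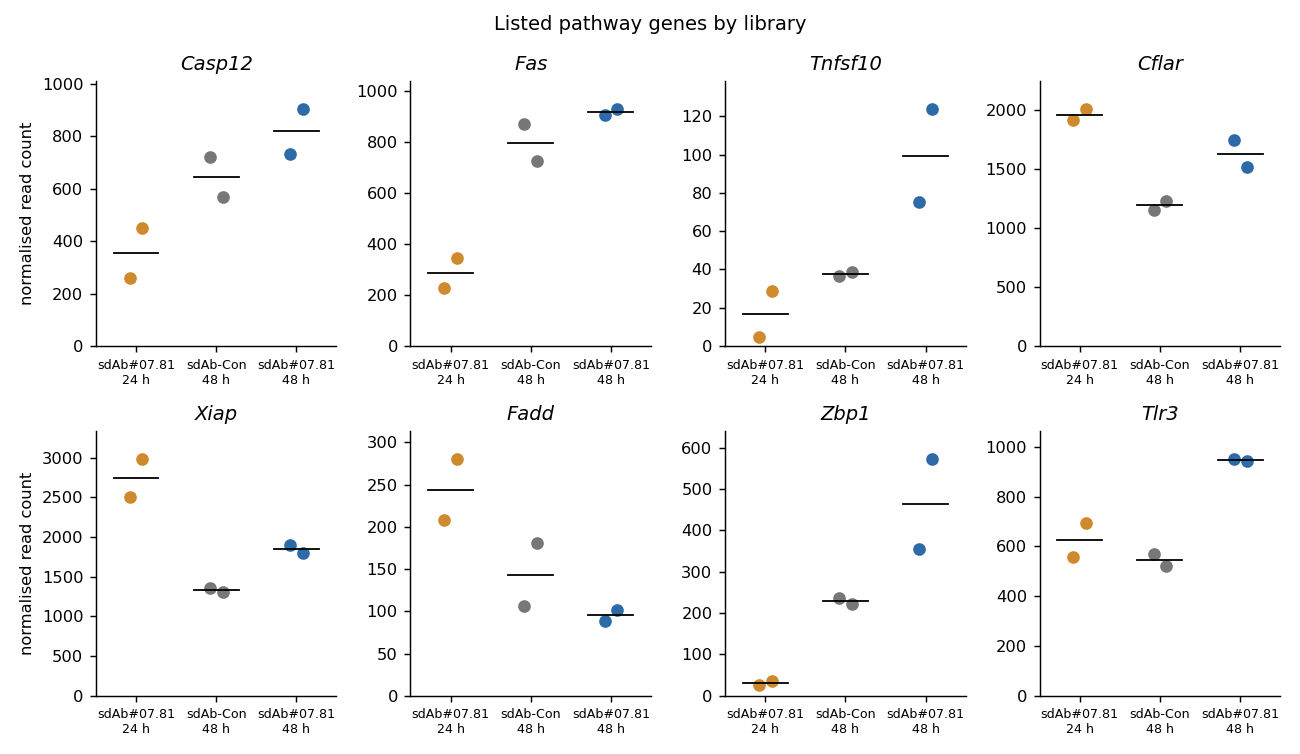
Normalised read count (vertical axis, from 0, different for each gene) of 8 listed pathway genes in the libraries of the 3 groups, as points, with the mean of 2 libraries as a line. *Tnfsf10*, *Cflar*, *Xiap*, *Zbp1* and *Tlr3* were higher with sdAb#07.81 at 48 h than with the control antibody, while *Casp12*, *Fas* and *Fadd* did not pass in that comparison and differed between 24 h and 48 h of sdAb#07.81.

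Of the inflammasome list, which holds the sensors upstream of caspase-1 and the cytokines it matures, only 8 and 9 of 20 genes were tested. *Pycard*, which encodes the adaptor ASC, had at most 4.78 normalised reads in any library, *Nlrc4* at most 9.84, *Nlrp3* at most 12.4 and *Aim2* at most 13.6. None of the 8 tested genes was called between the antibodies by the deposited test, beside 16.6% of all tested genes. *Gbp2*, an interferon-induced guanylate-binding protein, was at 0.72 there without passing (adjusted p = 0.0798). It had 2229 and 1643 normalised reads with sdAb-Con and 2716 and 3628 with sdAb#07.81 at 48 h. Against 24 h *Gbp2* was higher at 3.67, and *Dpp9* at -0.54, *Il1a* at -0.47, *Nek7* at -0.29 and *Dpp8* were lower. That is 55.6% of the tested genes of this list beside 41.9% of all. *Il1b*, the cytokine gene whose product caspase-1 matures, fell under the minimum count against sdAb-Con (48 h), with 4.79 and 1.04 normalised reads there and 12.5 and 17.5 in sdAb#07.81 (48 h), and it was not called against 24 h.

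The other gasdermins were nearly silent. Of 9 genes for gasdermins and membrane rupture only *Gsdmc4* and *Ninj1*, which encodes the protein that ruptures the membrane after pore formation, were tested, and neither was called in either comparison. *Ninj1* had 238 and 242 normalised reads in sdAb-Con (48 h), 177 and 214 in sdAb#07.81 (48 h) and 196 and 155 in sdAb#07.81 (24 h). *Gsdmd* and *Gsdme*, both at 204 normalised reads or more in every library, were thus the gasdermin genes with an appreciable level in these cells.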

How the data were processed

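The authors sequenced RNA from cultured 4T1 cells, and cutadapt 1.9.1, HISAT2 2.0.1 and HTSeq 0.6.1 are named in the submitters' processing notes. The build in these notes, GRCh38.p14, is a human assembly, while the gene identifiers are murine, and all gene coordinates are those listed in the tables. For each gene of a comparison the authors deposited the mean of counts divided by size factors (unit signal), a fold change as a linear ratio, its log2 value with a standard error, a score (the Wald statistic) and a two-sided p-value. The adjusted p-values they also deposited were not used for calls. These are columns of comparisons made by the authors. They were used because the tables list no column per library. A positive value means higher in sdAb#07.81 (48 h).

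Genes with a mean of at least 10 were tested, and p-values were adjusted over them by the Benjamini-Hochberg method with a threshold of 0.05. Means deposited with 15 digits are sums of whole reads over 4 size factors. The size factors came from genes with a single read, whose sign of fold change gave the group, and the factors common to both tables gave the sdAb#07.81 (48 h) libraries. Reads of 6 libraries were then solved as a lattice problem for 25650 of 25676 genes. The 26 others held 11.7% of the summed means. For 5311 genes solved from each table alone, the shared libraries had identical reads in 5311. The log2 ratio of resolved reads lay within 0.05 of the deposited log2 fold change for 100% of 13850 genes against sdAb-Con (48 h) and for all but 1 of 13942 genes against 24 h, a gene with no read at 24 h. The libraries carry no replicate number.

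limma 3.58.1 under R 4.3.3 was fitted to log2 of reads plus 0.5 over size factors, for 6 libraries and 3 comparisons, an alternative chosen after seeing the data. The resolution of reads, the calling, the removal of the trend and the limma fit to all 6 libraries were tested on simulated data. Other steps ran in Python 3.11.15 (pandas 2.3.3, numpy 2.4.6, matplotlib 3.10.9, scipy 1.17.1). Transcript lengths came from GENCODE, with 95.8% and 95.6% of identifiers matched. The members, lists and tests were chosen with earlier results of these data known. Genes named were the members and, for each list and comparison, up to 4 called genes with the largest log2 fold change, plus genes under the minimum where a list had few. Naming genes most like a member called in both comparisons gave none. Other alternatives were a minimum of 100, no minimum, a fold of at least 1.5, removal of a trend with GC content, mean count and length, and leaving out each library. *Dpp8* and *Il1b* were named after their values were seen. Intervals cover 95%, and depth limits *Ripk3*, where a count of 3 reads is the floor. Some listed genes are counted in their lists, and their single values are not reported here.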

Additional observations from a re-analysis of the deposited data

How the results depend on the processing

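Of the member values in both deposited comparisons, 99 of 112 under other settings kept their direction and their side of the threshold. No member was called against sdAb-Con (48 h) under any alternative, and against 24 h there were 3 calls at a fold of at least 1.5 and 4 to 5 in limma without 1 library, where without library b of 24 h *Gsdmd* was gained and *Gsdme* lost. Against sdAb-Con (48 h), 14 listed genes were called, and 3 at a fold of at least 1.5, 4 with the trend removed (3 of them among the 14), 8 in limma (6 among the 14) and 1 to 4 without 1 library, with 1 when library b of sdAb-Con was left out. Against 24 h, 37 listed genes were called, and 13 at a fold of at least 1.5 and 22 to 37 without 1 library. The 37 called without library b of 24 h shared 28 with the first 37. Against sdAb-Con (48 h), where no member was called, the log2 fold change turned sign in limma without 1 library for *Casp1* (-0.090 to 0.178), *Casp4* (-0.032 to 0.037) and *Mlkl* (-0.234 to 0.093), namely without library b of sdAb-Con or of sdAb#07.81 (48 h) for *Casp1* and *Casp4* and without library a of sdAb#07.81 (48 h) for *Mlkl*. With the trend removed it turned for *Mlkl* (0.10), *Ripk1* (-0.028) and *Gsdmd* (0.028). The cause was not tested. A group left with 1 library was assumed to vary like the others. No paired analysis was possible because the resolved libraries carry no replicate number. At this depth the median standard error was 0.154 and 0.171 on the log2 scale.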
